A study of Mus musculus with 7 samples.

Results

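AP-1 transcription factors and the early response genes that damp their signal were measured as RNA in CD4+ cells sorted from mouse spleen. The set held 10 genes out of 19589 in the deposited table and was chosen by name: Fos, Fosb and Fosl2; Jun, Junb and Jund; Ier2; and Dusp1, Zfp36 and Btg2. All 10 were found. The RT group was 3 C57BL/6 mice (libraries RT1 to RT3), which the series describes as Tet2-/- with G17V RHOA, and the WT group was 4 C57BL/6 mice (WT1 to WT4). Tet2 encodes an enzyme that oxidises methylated cytosine in DNA, and G17V is a substitution in the small GTPase RHOA that is recurrent in angioimmunoblastic T cell lymphoma. No age, treatment, promoter or Cre driver is stated in the labels, so which cells carried the alleles is not known here. In these bulk samples, fewer cells of a type and less RNA per cell cannot be told apart.

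Fos and Jun proteins pair through leucine zippers to form AP-1, which binds DNA at AP-1 sites. In T cells, signals from the antigen receptor through the MAP kinases induce Fos and Jun and activate their products, and AP-1 acts with NFAT at cytokine genes. The same signals induce dampers: Dusp1 encodes a nuclear phosphatase that inactivates MAP kinases, Zfp36 encodes tristetraprolin, which binds AU-rich elements and speeds the decay of short-lived mRNAs, and Btg2 encodes an antiproliferative protein that binds the CCR4-NOT deadenylase. These genes are also induced when tissue is taken apart and cells are handled.

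The promoters of Fos, Fosb, Dusp1 and Btg2 are shown because the RT against WT effect on Fos and Fosb differed between sets of libraries, Dusp1 was called in the second comparison below, and Btg2 shares a CRE with Dusp1. They are RefSeq sequences of GRCm38.p6, read 5′ to 3′ on the gene's strand, and they stop at the transcript start of RefSeq or at the first GENCODE M21 exon base, whichever comes first. Fos lies at chr12:85473640-85473889 (+), Fosb at chr7:19310052-19310295 (-), Dusp1 at chr17:26508520-26508722 (-) and Btg2 at chr1:134079156-134079405 (-). Capitals mark the CRE, to which CREB factors bind and which reads TGACGTCA. They also mark a shorter form of the CRE, which has the letters TGACG. In the Fos promoter they mark the TATA box as well, a motif that was searched for as TATAAA.
Fos: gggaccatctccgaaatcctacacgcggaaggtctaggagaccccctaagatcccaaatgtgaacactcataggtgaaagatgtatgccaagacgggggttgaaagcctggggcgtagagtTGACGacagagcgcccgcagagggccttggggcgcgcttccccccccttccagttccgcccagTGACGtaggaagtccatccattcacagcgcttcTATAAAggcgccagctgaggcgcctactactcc
Fosb: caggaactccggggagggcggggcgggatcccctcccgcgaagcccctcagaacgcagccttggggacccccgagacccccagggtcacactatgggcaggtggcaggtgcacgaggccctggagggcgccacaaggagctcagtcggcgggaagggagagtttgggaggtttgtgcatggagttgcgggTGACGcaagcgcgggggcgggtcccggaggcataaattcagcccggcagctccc
Dusp1: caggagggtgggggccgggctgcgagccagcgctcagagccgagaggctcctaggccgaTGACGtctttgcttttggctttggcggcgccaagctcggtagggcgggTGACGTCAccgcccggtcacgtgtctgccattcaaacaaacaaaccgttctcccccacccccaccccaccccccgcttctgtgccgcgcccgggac
Btg2: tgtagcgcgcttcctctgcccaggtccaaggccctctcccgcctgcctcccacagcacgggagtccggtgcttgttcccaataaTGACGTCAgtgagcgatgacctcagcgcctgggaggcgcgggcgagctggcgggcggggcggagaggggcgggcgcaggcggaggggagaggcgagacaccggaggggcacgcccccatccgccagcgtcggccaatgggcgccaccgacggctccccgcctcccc
Promoter sequences were matched for 9 of the 10 genes, and motifs were searched on both strands of the 250 bases before the RefSeq start. TGACGTCA was found in 2 of the 9 (Dusp1 and Btg2), and in 1.55% of 32851 promoters. TGACG, which lies within TGACGTCA, was found in 5 of the 9 (Fos, Fosb, Junb, Dusp1 and Btg2), and in 17.8% of promoters. A CArG box, the element bound by SRF, was found in 1 of the 9 (Zfp36), and in 1.47% of promoters. TATAAA was found in 1 of the 9 (Fos), and in 12.4% of promoters. GGGCGG, a GC box, was found in 7 of the 9, and in 32.7% of promoters. The AP-1 site TGANTCA was found in 0 of the 9, and in 6.75% of promoters. Some of these RefSeq windows differ from the GENCODE M21 gene model. That of Zfp36 lies wholly within an exon of the gene, and that of Fosl2 begins in one. That of Jund ends at base 70697738, upstream of the GENCODE start at 70698949. The matches describe letters in these windows and do not show binding.

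**Figure D1:**
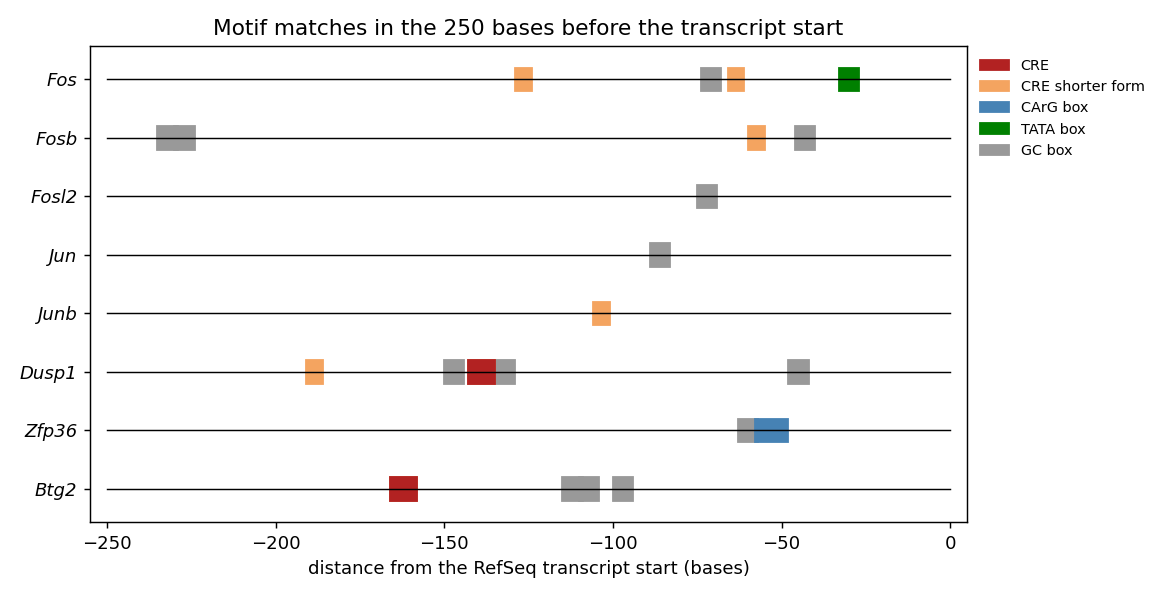
Motif matches in the 250 bases before the RefSeq transcript start; the horizontal axis is the distance from the start in bases, each row is a gene and each box a match. Fos, Fosb, Junb, Dusp1 and Btg2 carry TGACG (within the CRE in Btg2), Dusp1 and Btg2 the whole CRE, and Zfp36 a CArG box; Jund, which had a promoter but no match, and Ier2 are not drawn.

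Each genotype was represented in a deep and in a shallow set of libraries. Recovered reads, the whole reads worked out from the steps of the RPKM values, summed to 10982485 in RT1 against 8838054 and 10320427 in WT1 and WT2, the deep libraries. They summed to 96271 and 111232 in RT2 and RT3 against 105033 and 107780 in WT3 and WT4, the shallow libraries. RPKM sums also differed, with 326187 to 366023 in the shallow libraries and 133044 to 152578 in the deep ones, so levels are given below as RPM (recovered reads per 1000000 of them) unless RPKM is named. A limit of 3 reads, which covers counting error only, allows a gene with 0 reads 0.273 to 0.339 RPM in deep and 27.0 to 31.2 RPM in shallow libraries. Tet2 stood at 118, 10.4 and 0 RPM in RT1 to RT3, against 156, 107, 38.1 and 37.1 RPM in WT1 to WT4. RT1 thus lay between WT1 and WT2 for Tet2; no source used here says which part of the gene was deleted, so this level does not check the label. By Xist and Y-linked reads, RT3, WT3 and WT4 came from males and the other 4 from females. The summed level of 8 CD4+ T cell markers was 4698 to 12600 RPM in RT and 4802 to 5941 RPM in WT, and that of the CD8 genes Cd8a and Cd8b1 was 0 to 8.99 RPM in RT and 9.52 to 27.8 RPM in WT.

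Fos, which encodes the best known partner of Jun, stood at 880, 1008 and 1115 RPM in RT1, RT2 and RT3, against 186, 118, 1619 and 1559 RPM in WT1 to WT4. The 3 RT libraries lay close together, whereas WT1 and WT2 were far below them and WT3 and WT4 above them. The shallow values rested on 97 and 124 reads in RT2 and RT3, against 170 and 168 reads in WT3 and WT4. The mean was 1001 ± 117 RPM in RT (SD, n = 3) and 870 ± 830 RPM in WT (SD, n = 4), so the groups overlapped.

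Fosb encodes a close relative of Fos that is likewise induced within minutes of a stimulus. It stood at 288, 145 and 180 RPM in RT1 to RT3, against 38.5, 21.6, 1019 and 900 RPM in WT1 to WT4. The order was that of Fos: WT1 and WT2 lowest, the RT libraries between, and WT3 and WT4 highest. In reads, RT2 and RT3 had 14 and 20, against 107 and 97 in WT3 and WT4.

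Fosl2, which encodes Fra-2, a later and more stable Fos protein, had 173 RPM in RT1, against 93.6 and 67.0 RPM in WT1 and WT2. In the shallow libraries it had 1 and 9 reads in RT2 and RT3, against 1 read in WT3 and 1 in WT4. RT1 lay above both deep WT libraries, while RT2 was level with the shallow WT libraries at a depth where 1 read is worth 10.4 RPM.

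Jun, the main partner of Fos, stood at 738, 1039 and 962 RPM in RT1 to RT3, against 605, 870, 1152 and 900 RPM in WT1 to WT4. The groups overlapped within each set of libraries. Junb encodes a Jun protein with weaker activating power, which restrains Jun in some settings. It stood at 1431, 1444 and 1061 RPM in RT1 to RT3, against 1601, 1695, 1952 and 1707 RPM in WT1 to WT4. Every RT library lay below every WT library, as for 5.64% of the 5868 genes tested on reads. Its mean was 1312 ± 218 RPM in RT (SD, n = 3) and 1739 ± 150 RPM in WT (SD, n = 4).

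Jund encodes the Jun protein that most resting cells make steadily. It stood at 1177, 1423 and 539 RPM in RT1 to RT3, against 738, 811, 866 and 566 RPM in WT1 to WT4. RT1 and RT2 were above all WT libraries and RT3 below all of them, with 60 reads in RT3 and 61 in WT4. Of the exon bases of Jund, 52.6% are shared with the antisense gene Gm11175. For Junb the share was 7.52% with Prdx2 and for Jun 7.28% with Junos, both on the opposite strand. Strand use in counting is not stated, so reads of such pairs cannot be told apart. Ier2, an early response gene encoding a nuclear protein, stood at 172, 239 and 162 RPM in RT1 to RT3, against 216, 286, 295 and 213 RPM in WT1 to WT4. The groups overlapped through RT2, and the shallow values rested on 23 and 18 reads in RT2 and RT3 against 31 and 23 in WT3 and WT4.

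Among the dampers, Dusp1 stood at 843, 1184 and 953 RPM in RT1 to RT3, against 350, 229, 600 and 816 RPM in WT1 to WT4. Every RT library lay above every WT library, as for 5.76% of the 5868 genes, although RT1 exceeded WT4 by little; on the RPKM scale the groups overlapped. The mean was 993 ± 174 RPM in RT (SD, n = 3) and 499 ± 262 RPM in WT (SD, n = 4). Zfp36 stood at 214, 706 and 665 RPM in RT1 to RT3, against 179, 155, 1142 and 1169 RPM in WT1 to WT4. The 3 deep libraries were low, with RT1 above WT1 and WT2, and the 4 shallow ones were high, with RT2 and RT3 below WT3 and WT4. Btg2 stood at 597, 665 and 414 RPM in RT1 to RT3, against 550, 556, 476 and 538 RPM in WT1 to WT4. The WT libraries lay within the range of the RT libraries.

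**Figure D2:**
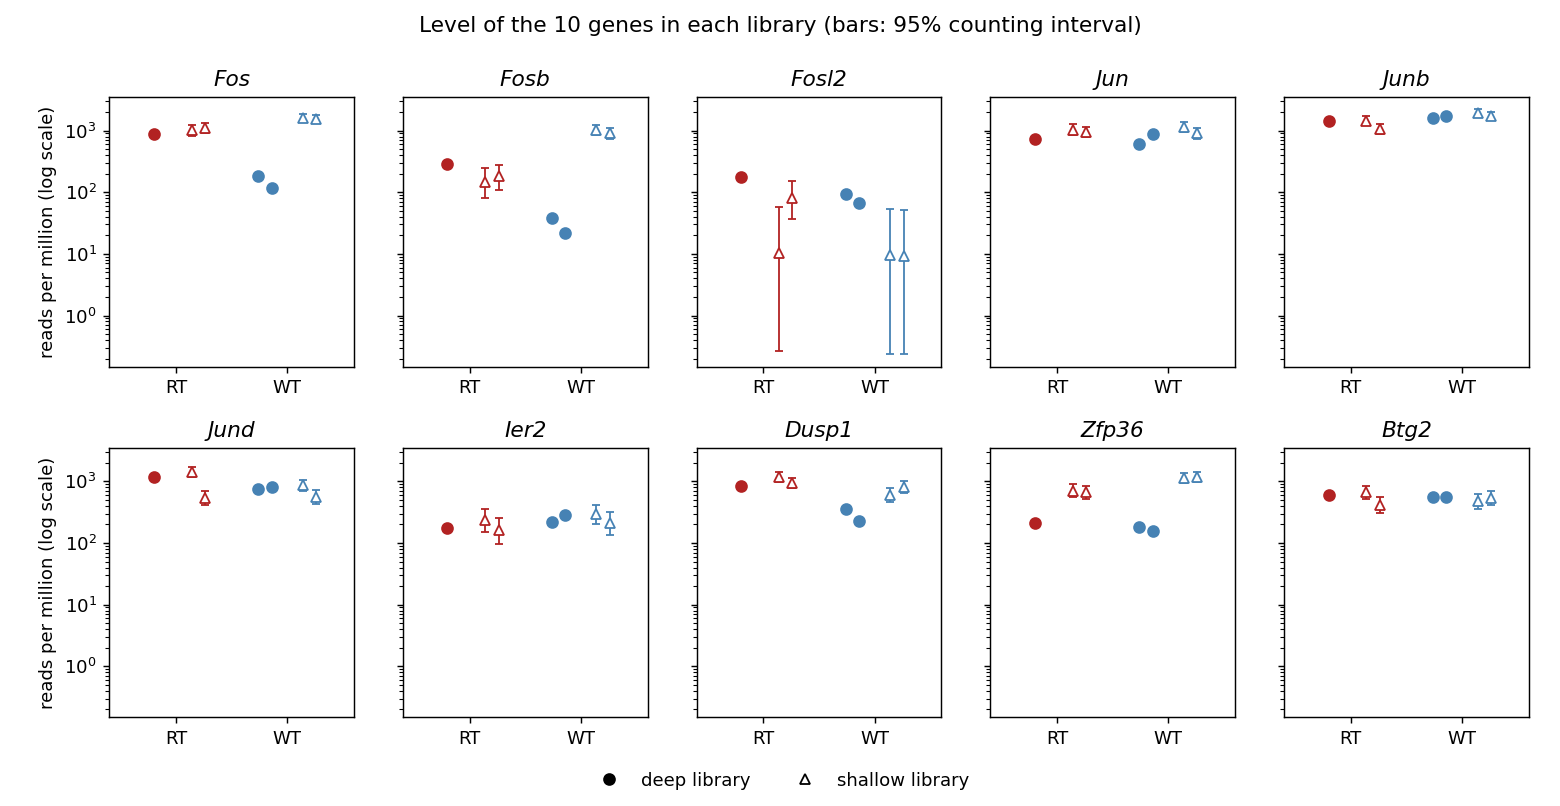
Level of each gene in RPM (log scale), with RT libraries left of WT libraries; filled circles are deep and open triangles shallow libraries, and bars are 95% counting intervals. Fos, Fosb and Zfp36 had RT above WT in the deep libraries and below WT in the shallow ones, while every RT library lay above every WT library for Dusp1 and below for Junb.

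The first comparison, of log2(RPKM + 1) over all 7 libraries with limma, called 0 of the 10 genes higher or lower in RT at an adjusted p under 0.05. It called 0.0521% of the 9605 genes tested. Before adjustment, p was under 0.05 for 0 of the 10, and for 435 higher and 400 lower genes. The median log2 fold change was 0.26 over the 10 and 0.00 over all genes tested. Dusp1 had the largest estimate, 1.31 ± 0.73 (SE; adjusted p = 0.662), followed by Fos at 1.20 ± 1.16 (SE; adjusted p = 0.815). P-values throughout are based on the spread between these samples, which the series calls separate mice. In these fits limma estimates that spread partly from other genes, and almost wholly from them in the fit of recovered reads of the shallow libraries alone. In the fit of the deep libraries alone, RT was 1 mouse and adds no spread.

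The second comparison fitted recovered reads with limma voom and terms for genotype and library set, over 5868 genes. It called 541 genes higher and 460 lower in RT, 17.1% of those tested. Of the 10, it called 2 higher (9.22% of all genes were) and 0 lower (7.84% were). Dusp1 rose in RT, with a log2 fold change of 1.27 ± 0.25 (SE; adjusted p = 0.0108). Fosl2 rose by 1.14 ± 0.22 (SE; adjusted p = 0.0112). The median log2 fold change was 0.30 over the 10 and -0.03 over all genes tested. Both calls rested on RT1, the only deep RT library. Without it, limma voom called 0 of 5868 genes, although 170 had higher and 329 lower estimates with p under 0.05 before adjustment. Dusp1 then had 0.59 (adjusted p = 0.766) and Fosl2 1.43 (adjusted p = 0.876).

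For the other 8 genes the second comparison gave log2 fold changes from -0.51 to 1.55, none past the threshold. Fos had 1.36 (95% interval 0.27 to 2.46; adjusted p = 0.137) and Fosb 1.55 (-0.33 to 3.43; adjusted p = 0.309). The Jun family was split, with Jund at 0.52 (0.05 to 0.98), Jun at 0.01 (-0.33 to 0.34) and Junb at -0.34 (-0.60 to -0.07). Ier2 had -0.51 (-0.87 to -0.15; adjusted p = 0.0977). The other dampers were near 0, with Btg2 at 0.09 (-0.17 to 0.36) and Zfp36 at -0.05 (-0.48 to 0.39). Jund passed the threshold without RT3 (0.71; adjusted p = 0.0428) and Ier2 without WT1 (-0.64; adjusted p = 0.0318).

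**Figure D3:**
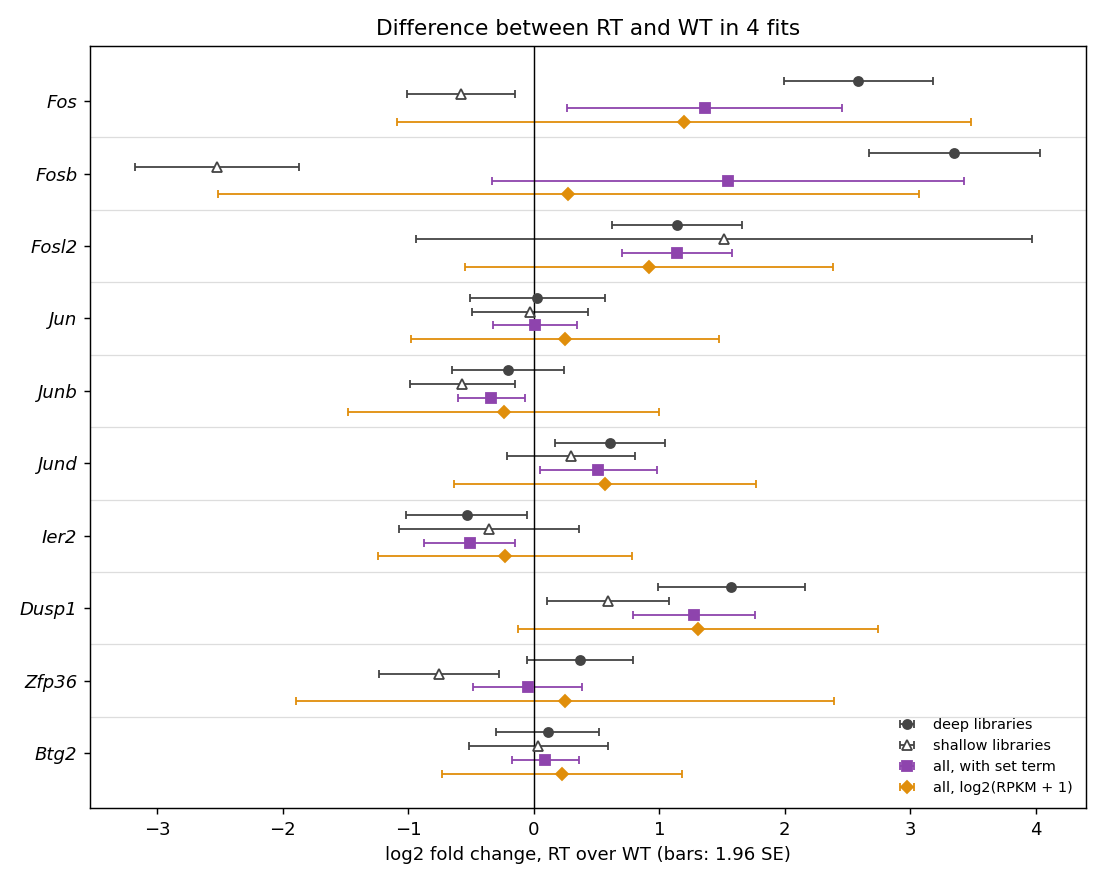
Log2 fold change of each gene, RT over WT, in the deep libraries, the shallow libraries, all libraries with a set term and all libraries on log2(RPKM + 1). Bars are 95% intervals from the SE and a normal distribution, narrower than those of the tests. Fos and Fosb lie right of 0 in the deep libraries and left of it in the shallow ones, and Dusp1 and Fosl2 lie right of 0 in all 4 fits.

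Within the deep libraries alone (RT1 against WT1 and WT2), the RT arm was 1 mouse, assumed to vary like the WT mice, so these values compare that mouse with the WT pair. There limma voom called 3 of the 10 higher and 0 lower, against 3.87% and 2.06% of all genes. Fos had a log2 fold change of 2.59 ± 0.30 (SE; adjusted p = 0.00946), with RT1 at 5.80 times the mean of WT1 and WT2. Fosb had 3.35 ± 0.35 (SE; adjusted p = 0.00765), with RT1 at 9.58 times that mean. Dusp1 had 1.58 ± 0.30 (SE; adjusted p = 0.0314). Fosl2 had 1.14 ± 0.26 (SE; adjusted p = 0.0525), and Zfp36 0.37 ± 0.22 (SE; adjusted p = 0.431).

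Within the shallow libraries alone (RT2 and RT3 against WT3 and WT4), 0 of the 10 were called higher and 2 lower, against 3.78% and 5.42% of all genes. Fosb fell by 2.52 ± 0.33 on the log2 scale (SE; adjusted p = 1.98e-10), with a mean in RT2 and RT3 that was 0.17 times that in WT3 and WT4. Zfp36 fell by 0.75 ± 0.24 (SE; adjusted p = 0.0306). Fos had -0.58 ± 0.22 (SE; adjusted p = 0.0802), Junb -0.57 ± 0.21 (SE; adjusted p = 0.0726) and Dusp1 0.59 ± 0.25 (SE; adjusted p = 0.127). In this fit limma took the spread almost wholly from other genes, so its p-values say little of how Fosb or Zfp36 varies between mice. WT3 and WT4 also differed by little more than sampling noise (chi-square per degree of freedom 1.14). The p-values in this set depend on how the spread was estimated. The second comparison without RT1, which keeps WT1 and WT2, gave nearly the same estimates for Fosb and Zfp36 but called neither. With limma voom, Fosb there had -2.52 ± 0.54 (SE, adjusted p = 0.272) and Zfp36 -0.75 ± 0.24 (SE, adjusted p = 0.397).

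The difference between these effects was tested directly, as the RT against WT effect in the shallow libraries minus that in the deep ones. It was past the threshold for 2 of the 10, both negative, against 0.954% of the 5868 genes. For Fos the difference was -3.16 ± 0.41 on the log2 scale (SE; adjusted p = 0.0177), and for Fosb it was -5.85 ± 0.64 (SE; adjusted p = 0.0113). On log2(RPKM + 1), where 0.822% of 9605 genes were past the threshold, the same differences were -3.10 (adjusted p = 0.0380) and -5.53 (adjusted p = 0.0150). For Zfp36 it was -1.12 ± 0.30 (SE; adjusted p = 0.198) and for Dusp1 -0.99 ± 0.49 (SE; adjusted p = 0.628). RT and WT lay apart in opposite directions in the sets for 3 of the 10, Fos, Fosb and Zfp36, as for 14.6% of the 5868 genes. Leaving out RT2, RT3, WT3 or WT4 ended both calls, with Fos at -3.24 to -3.09 (adjusted p = 0.104 to 0.204) and Fosb at -6.01 to -5.72 (adjusted p = 0.0531 to 0.187). Without WT1 the differences were -3.48 for Fos and -6.25 for Fosb, and without WT2 they were -2.82 and -5.42, all past the threshold.

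The sets themselves were compared within genotype. In WT alone, shallow minus deep, 3 of the 10 were called higher and 0 lower, against 2.01% and 0.0682% of all genes. Fosb was 31.9 times higher in WT3 and WT4 than in WT1 and WT2 (log2 difference 5.08 ± 0.38, SE; adjusted p = 0.00455). Fos was 10.5 times higher (3.44 ± 0.32, SE; adjusted p = 0.00770) and Zfp36 6.91 times (2.80 ± 0.20, SE; adjusted p = 0.00432). In RT, RT2 and RT3 averaged 1.21 times the RT1 level for Fos, 0.56 times for Fosb and 3.20 times for Zfp36. With both genotypes in the fit, Zfp36 was the 1 gene of the 10 called higher in the shallow libraries (2.34 ± 0.23, SE; adjusted p = 5.26e-04), against 8.06% of all genes. The labels do not say why the sets differ, and depth, sex of WT3 and WT4, and any other difference between the sets cannot be told apart within WT.

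Summed markers of some other cell types had the directions of Fos and Fosb within each library set, and those of others did not. The summed level of 7 macrophage and monocyte markers was 3193, 426 and 584 RPM in RT1 to RT3, against 884, 623, 1304 and 1188 RPM in WT1 to WT4. As for Fos, RT1 was above the deep WT libraries and RT2 and RT3 were below the shallow WT libraries. Among the defining genes, Csf1r stood at 1286, 72.7 and 98.9 RPM in RT1 to RT3, against 388, 312, 362 and 390 RPM in WT1 to WT4, while Fcgr1 was at 0 in RT2, RT3, WT3 and WT4. Cd14 went the other way in the shallow libraries, at 20.8 and 53.9 RPM in RT2 and RT3, against 0 RPM in WT3 and WT4. The 7 B cell markers summed to 253, 72.7 and 71.9 RPM in RT1 to RT3, against 222, 172, 1152 and 1308 RPM in WT1 to WT4. The 4 plasma cell markers summed to 453, 270 and 261 RPM in RT1 to RT3, against 126, 112, 1523 and 1707 RPM in WT1 to WT4. The B and plasma cell sums were highest in WT3 and WT4, where Fosb and Zfp36 were highest too. The 6 dendritic cell markers summed to 80.6, 0 and 45.0 RPM in RT1 to RT3, against 78.9, 51.0, 409 and 427 RPM in WT1 to WT4. The 5 erythroid genes, mostly globins, summed to 171 to 405 RPM in RT, against 111 to 293 RPM in WT1 and WT2 and 1735 to 1761 RPM in WT3 and WT4, with RT1 between WT1 and WT2. The 5 NK cell markers had the opposite directions, at 15.2, 415 and 198 RPM in RT1 to RT3, against 48.3, 33.8, 76.2 and 64.9 RPM in WT1 to WT4. Of these 5, 4 were at 0 in RT2 and in RT3. Among the markers, the difference between the sets was past the threshold for 3 of 5 tested macrophage genes (Csf1r, C1qa and C1qb) and 2 of 3 plasma cell genes (Jchain and Mzb1), against 0.954% of all genes. It was past the threshold for 0 of 7 B cell, 0 of 3 dendritic cell, 0 of 4 erythroid and 0 of 1 NK cell genes. The part of these cells in the levels of Fos, Fosb and Zfp36 was not tested.

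**Figure D4:**
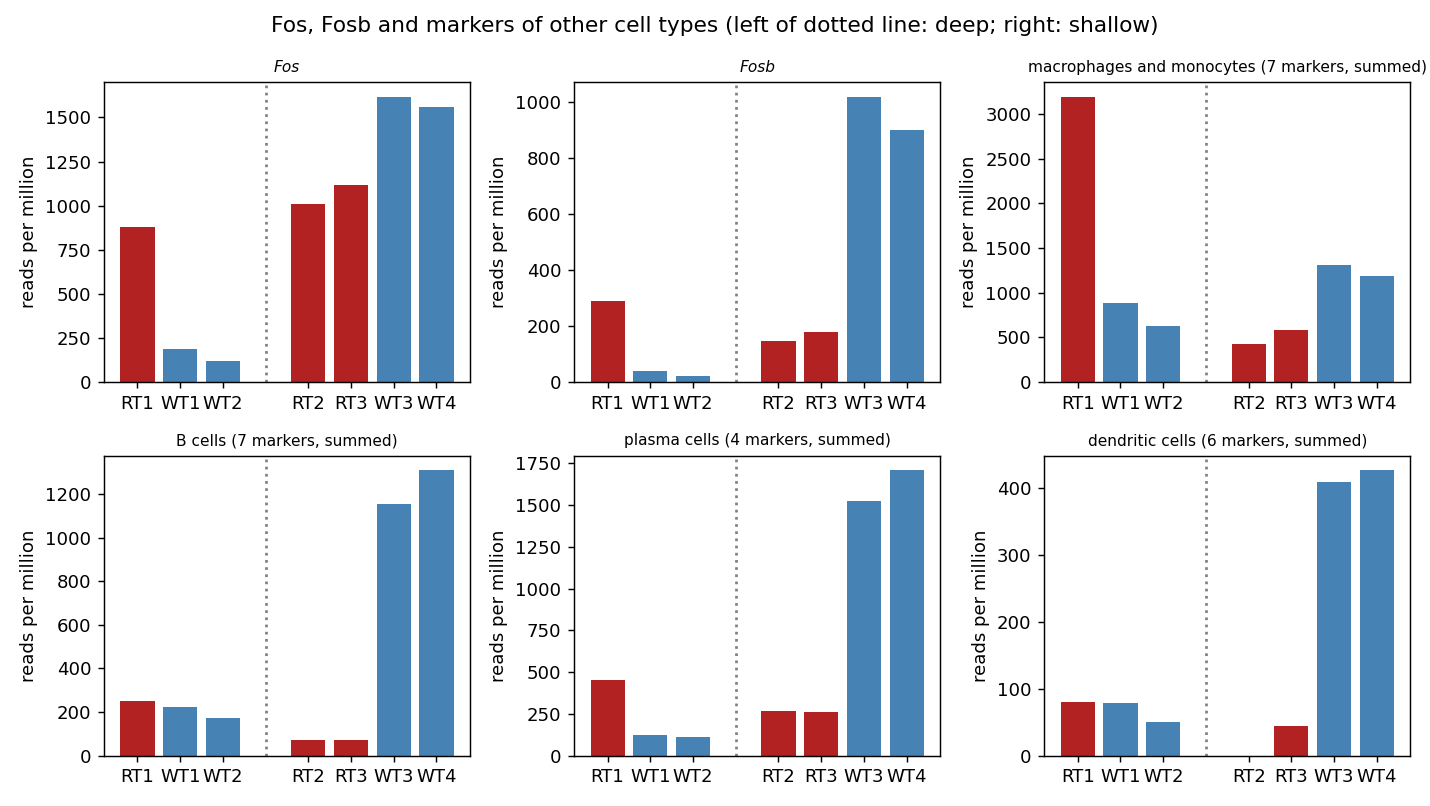
Fos, Fosb and summed markers of 4 other cell types in each library, in RPM, with deep libraries left of the dotted line and shallow ones right of it; RT bars are red and WT bars blue. RT1 exceeds WT1 and WT2, and RT2 and RT3 lie below WT3 and WT4, in every panel. For the dendritic cell markers RT1 exceeds WT1 by little.

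Levels relevant to the sorted T cells differed as well. The 7 follicular helper T cell markers summed to 2184 to 3434 RPM in RT and 398 to 819 RPM in WT. The second comparison called 6 of the 7 higher and 0 lower, against 9.22% and 7.84% of all genes. The 8 naive T cell markers summed to 1561 to 2643 RPM in RT and 3723 to 4976 RPM in WT, with 0 called higher and 7 lower. All these calls ended without RT1, where 0 of 5868 genes were called. In each list the summed levels of the RT and WT libraries did not overlap, unlike the levels of Fos and Fosb. Of single genes, Sh2d1a, Tcf7, Il7r and Klf2 did overlap. Il7r stood at 245, 436 and 548 RPM in RT1 to RT3, against 416, 392, 286 and 315 RPM in WT1 to WT4. What these marker differences have to do with the levels of Dusp1 and Fosl2 was not tested.

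Per length, the makeup of the set varied between libraries. By RPKM, Junb or Jund was the highest of the 10 in 6 libraries and Fos in RT3, and Fosl2 or Fosb was the lowest in each library. Among all genes Junb ranked between 44 and 125 in RT and between 43 and 78 in WT. Fos ranked 84, 163 and 119 in RT1 to RT3, against 508, 911, 85 and 97 in WT1 to WT4. The Fos family made up 17.4%, 14.1% and 22.0% of the summed RPKM of the 10 in RT1 to RT3, against 5.26%, 3.15%, 26.6% and 27.8% in WT1 to WT4. Ier2 and the dampers Dusp1, Zfp36 and Btg2 together made up 25.7%, 31.4% and 33.1% in RT1 to RT3, against 26.8%, 25.0%, 25.5% and 30.1% in WT1 to WT4. The Fos family share thus spread further over the WT libraries than the share of Ier2 and the dampers. The ratio of Dusp1 to Fos by RPKM was 0.83, 1.02 and 0.75 in RT1 to RT3, against 1.64, 1.69, 0.32 and 0.46 in WT1 to WT4. The RT ratios lay between those of the deep and the shallow WT libraries.

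**Figure D5:**
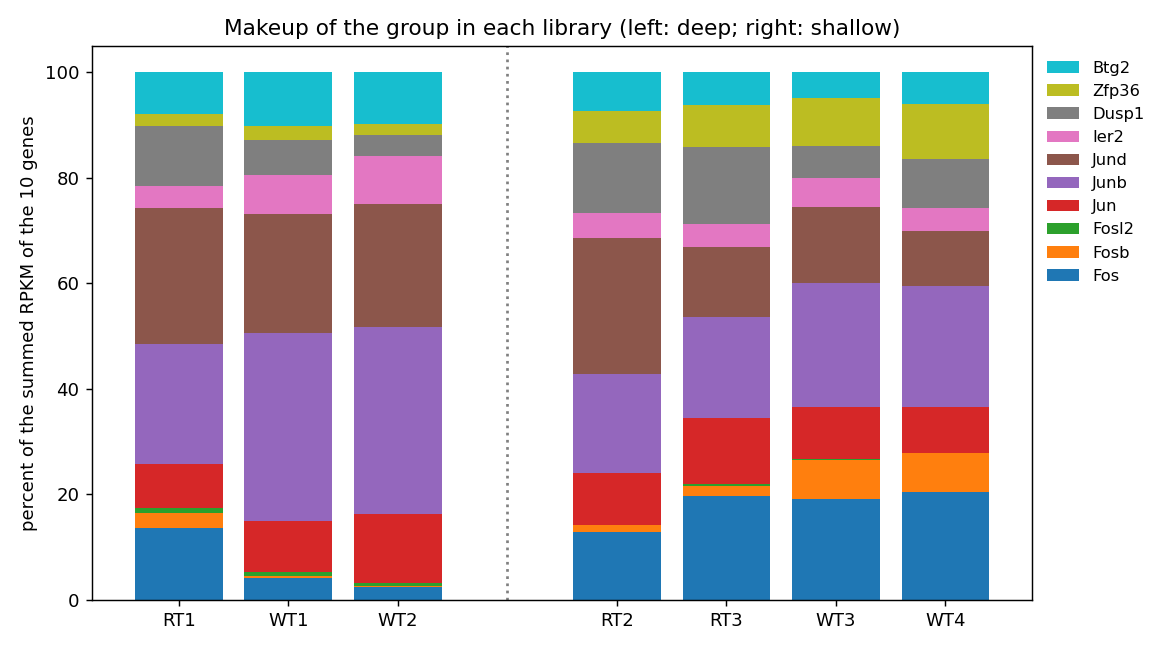
Share of each gene in the summed RPKM of the 10 genes, in percent, for each library; deep libraries are left of the dotted line and shallow ones right of it, RT before WT in each set. The Fos share was 13.7% in RT1, against 4.04% and 2.41% in WT1 and WT2, and 12.9% and 19.6% in RT2 and RT3, against 19.1% and 20.4% in WT3 and WT4.

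Across the 7 libraries, with log2 RPM centred within the deep and the shallow set, the genes formed no single pattern. Fos and Fosb had a Pearson r of 0.89, Fosb and Zfp36 0.90, and Fos and Dusp1 0.74. Dusp1 and Zfp36 had 0.01, and Fosl2 and Junb -0.90. These are descriptions over 7 libraries that share 2 sets and genotypes. The mean of the 10 mainly followed Fos (r = 0.99) and Fosb (r = 0.90). The 5 genes most like that mean were Hap1 (0.99), C1qb (0.99), Vcam1 (0.98), Pitpnm2 (0.97) and Apoe (0.96). C1qb encodes a complement chain and Apoe a lipid carrier, both abundant in tissue macrophages, and Vcam1 encodes an adhesion molecule. Apoe stood at 1914, 332 and 441 RPM in RT1 to RT3, against 156, 160, 581 and 455 RPM in WT1 to WT4.

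Genes of the same pathways were counted in the second comparison, where all calls likewise end without RT1. Over all genes it called 9.22% higher and 7.84% lower, the shares beside which each list below stands. Of 6 tested genes among the other AP-1 and small Maf factors, 3 were higher and 1 lower, with a median log2 fold change of 0.92 against -0.03 over all genes tested. Batf, an AP-1 factor without an activating domain that pairs with Jun proteins and is needed for follicular helper T cells, stood at 200, 343 and 459 RPM in RT1 to RT3, against 67.9, 42.7, 66.6 and 74.2 RPM in WT1 to WT4. Every RT library lay above every WT library, as for 5.76% of the 5868 genes. With limma voom, Batf rose by 1.95 ± 0.23 on the log2 scale (SE, adjusted p = 0.00146). Maf rose by 1.39 (adjusted p = 0.00705) and Mafg by 1.24 (adjusted p = 0.0429), while the small Maf gene Mafk fell by 0.63 (adjusted p = 0.0347). Mafg had 0.69 without WT2, and the calls of Mafg and Mafk also ended without RT3, WT3 or WT4, that of Mafg without RT2 and that of Mafk without WT1. Of the 7 tested partners and competitors, 0 were higher and 1 lower, with a median of 0.28. That 1 was Bach2, a repressor that competes for AP-1 sites, which fell by 2.18 (adjusted p = 6.33e-04).

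Of 5 other MAP kinase phosphatases, 2 were higher and 2 lower (9.22% and 7.84% over all genes), with a median of -0.05. Dusp4 rose by 2.32 (adjusted p = 0.00363) and Dusp6, which acts on ERK, by 1.16 (adjusted p = 0.00323). Dusp5 fell by 1.39 (adjusted p = 0.00499) and Dusp10 by 0.93 (adjusted p = 0.0132). Without RT1 the log2 fold changes were 0.60 for Dusp6, -0.11 for Dusp5 and 0.44 for Dusp10; without WT2, Dusp4 had 1.73. Of 11 genes of the MAP kinase cascade, 4 were higher and 1 lower, with a median of 0.17. Among those higher, Map2k3, a kinase above p38, rose by 0.97 (adjusted p = 0.0199) and Mapk3, which encodes ERK1, by 0.63 (adjusted p = 0.0470). Without RT1, Map2k3 had 1.70, and the call of Mapk3 ended without any one library other than WT2. Rasgrp1, which activates Ras below the T cell receptor, fell by 2.06 (adjusted p = 6.36e-04), to 72.7 to 117 RPM in RT, against 219 to 514 RPM in WT.

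Of 6 SRF, ternary complex and CREB factors, 0 were higher and 1 lower, with a median of -0.03; Srf fell by 0.70 (adjusted p = 0.0306) and had -0.12 without RT1; that call also ended without RT3 or WT3. Of 11 relatives of Zfp36 and Btg2 and CCR4-NOT subunits, 0 were called in either direction, with a median of -0.18. The most abundant of them, Btg1 and Zfp36l2, had -0.12 (adjusted p = 0.700) and 0.54 (adjusted p = 0.179). Of 17 other early response genes, 7 were higher and 3 lower (9.22% and 7.84% over all genes), with a median of 0.14. Rhob rose by 1.08 (adjusted p = 0.00655), Gadd45b by 1.43 (adjusted p = 0.0223), the orphan receptor gene Nr4a3 by 1.23 (adjusted p = 0.0295) and the activation marker Cd69 by 1.01 (adjusted p = 0.0417). Myc fell by 1.55 (adjusted p = 0.00465), the quiescence factor Klf2 by 1.35 (adjusted p = 0.00957) and Ppp1r15a by 0.67 (adjusted p = 0.0275). Without RT1 the log2 fold changes were 0.15 for Rhob, 0.75 for Gadd45b, 2.34 for Nr4a3, -0.61 for Myc and -0.24 for Klf2. Without WT2 they were 0.93 for Gadd45b, 0.78 for Nr4a3 and 0.61 for Cd69. The calls of Gadd45b, Nr4a3, Cd69 and Ppp1r15a also ended without RT3, those of Nr4a3, Cd69 and Ppp1r15a without WT3, those of Nr4a3 and Cd69 without WT4, and that of Cd69 without RT2.

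Of 8 heat shock genes, 1 was higher and 0 lower (9.22% and 7.84% over all genes), with a median of 0.29. Hspa1a, which encodes an inducible HSP70, rose by 2.59 ± 0.46 (SE; adjusted p = 0.00784), and had 5.65 without RT1. It stood at 1620, 1548 and 611 RPM in RT1 to RT3, against 202, 431, 76.2 and 0 RPM in WT1 to WT4, and its reads may be split with its near-identical copy Hspa1b. Every RT library was above every WT library, as for 5.76% of the 5868 genes. Hspa1a thus did not follow Fos and Fosb, which were highest in WT3 and WT4. Of 3 tested genes with known AP-1 sites, 0 were higher and 1 lower, with a median of -0.26. That 1 was Ccnd1, which encodes cyclin D1, at 14.0, 0 and 0 RPM in RT1 to RT3, against 37.5, 33.3, 219 and 213 RPM in WT1 to WT4 (fitted log2 fold change -1.64; adjusted p = 0.0400). That call also ended without RT2, RT3, WT3 or WT4. In the first comparison, 0 genes of these 9 lists were called in either direction.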

How the data were processed

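RNA of sorted CD4+ spleen cells was made into libraries from 150 ng of total RNA with an Illumina TruSeq v2 kit, per the labels' protocols. The authors deposited RPKM values, reads scaled to gene length and library total, for 19589 genes in 7 libraries. Per the submitters' processing notes the reads were placed on mm10; no source used here names the aligner, counter or annotation.

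The values were fitted as log2(RPKM + 1) with limma 3.58.1 in R 4.3.3 (trended eBayes, genotype as the only term) over genes at 1 RPKM or more in 3 of the 7 libraries. Such fold changes understate the change of low genes. P-values are two-sided and adjusted by the Benjamini-Hochberg method (threshold 0.05). Whole reads were recovered from the steps of the values: 12984 genes gave whole reads with a single length in every library, including all 10 members, 874 needed a second length, 1 gave none and 5730 were at 0 (tolerance 0.001 reads). The recovered share of each library's total was 47.6% to 51.5% for deep and 88.3% to 91.4% for shallow libraries. Recovered reads were fitted with limma voom, which weights deep libraries more, over genes whose shallow libraries together held at least 10. The RPKM fit, the reads fit with a set term and the test between sets were run on simulated data with a single dispersion for all libraries. That does not check how they handle a spread that differs between libraries. The fits within a set or with a library left out were not run on it.

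WT3 and WT4 differed by little more than sampling noise (chi-square per degree of freedom 1.14 over 2353 genes, p = 1.2e-06, against 3.00 for RT2 and RT3 and 33.8 for WT1 and WT2). They were kept as 2 samples because the labels give them as such, which this check does not show. With the pair summed as 1 library, Dusp1 (1.25) and Fosl2 (1.14) each had an adjusted p of 0.0328 in limma voom. Whether replicate numbers pair the samples was not settled, and the 2 comparisons did not pair them. The members, the lists and the fits were chosen with earlier results of these data known. Of each list, genes past the threshold are named, up to 4 in each direction by p, and otherwise the 2 highest by RPKM. Some genes that this rule names are not reported here. Alternatives were the pseudocount, filter, scaling, library set, replicate block, averaging WT3 and WT4, and leaving out each library. Gene overlaps are from GENCODE M21 and promoters from RefSeq.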

Additional observations from a re-analysis of the deposited data

Results flagged for a closer look

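The RT against WT effect on Fos differed between the library sets, by -3.16 on the log2 scale (shallow minus deep, recovered reads): RT was above WT in the deep libraries and below it in the shallow ones. For Fosb the difference was -5.85, in the same direction. Both were past the threshold in a limma voom fit with a term for the difference. For Zfp36, RT was likewise above WT in the deep and below WT in the shallow libraries, and the difference of -1.12 was not past the threshold. The summed level of the macrophage markers had the same directions, though Cd14 was higher in RT than in WT in the shallow libraries and Fcgr1 was at 0 there; the part of these cells was not tested.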

How the results depend on the processing

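In the log2(RPKM + 1) fit, which called 4 genes higher and 1 lower in RT, the calls were 0 and 0 with a pseudocount of 0.1, with no filter, with the replicate block and with WT3 and WT4 averaged. They were 13 and 6 with RPKM scaled to the same sum (which moved the median of all genes to -0.17), 21 and 5 with a library set term, 2 and 0 in deep libraries, 11 and 75 in shallow ones, and 541 and 460 on recovered reads; a pseudocount of 5 gave 0 lower. Leaving out 1 library gave 0 to 10 higher and 0 to 5 lower, the most without RT1 and 0 of each without RT2, RT3, WT2 or WT3. On recovered reads the calls were 193 and 120 with the replicate block. Correlations of same-numbered deviations were 0.43, -0.18 and 0.18. The library sets were not removed from them, and RT2 and WT2 are in different sets. They therefore do not show whether the numbers pair samples. Calls on reads were 310 and 211 with no set term, 227 and 121 in deep and 222 and 318 in shallow libraries. With 1 library left out they were 0 to 766 and 0 to 699 (0 and 0 without RT1, 341 and 304 without RT3, and the 699 without WT2). Of the 10 genes, reads called 2 higher, but 0 with the block, with no set term and in shallow libraries (where 2 were lower; 1 on RPKM), and 0 to 3 higher and 0 to 1 lower with 1 library left out. Fos had 2.59 in deep and -0.58 in shallow libraries (-0.54 on RPKM), and -0.58 to 1.69 with 1 library left out. Fosb had 3.35 and -2.52 (-2.49 on RPKM), -0.039 with a pseudocount of 5 and -0.28 with a set term on RPKM; leaving out 1 library gave -0.74 to 1.23 on RPKM and -2.52 to 2.49 on reads. Fosl2, 1.14 on reads, was uncalled with the block (0.83), with no set term (1.03), in deep (1.14) and shallow libraries (1.51), and ran from 0.90 to 1.43 with 1 library left out. Dusp1, 1.27 on reads, was uncalled with the block (1.47), with no set term (1.34) and in shallow libraries (0.59), and ran from 0.59 to 1.39. Zfp36, 0.25 on RPKM, had -0.27 with a set term and -0.71 in shallow libraries on RPKM, and on reads -0.046 with a set term, 0.50 with the block, 0.37 in deep, -0.75 in shallow libraries and 0.28 with no set term; leaving out 1 library gave -0.36 to 1.08 and -0.75 to 0.086. With 1 library left out, Jun ran from -0.077 to 0.68 on RPKM and -0.14 to 0.19 on reads (-0.027 in shallow libraries), Ier2 from -0.54 to 0.12 and -0.64 to -0.33, Btg2 from -0.054 to 0.45 on RPKM, and Jund from 0.29 to 0.71 on reads. The difference between sets ran from -3.48 to -2.82 for Fos and -6.25 to -5.42 for Fosb. Among other named genes, Dusp10 had 0.45 in shallow libraries (-1.04 to 0.44 with 1 left out), and Btg1 0.27 on RPKM, 0.42 in shallow libraries, 0.044 with no set term and -0.31 to 0.42 with 1 left out. The causes were not tested. The reads fits with no set term and the tests between sets were chosen after seeing the data, and RT1 cannot be left out of the tests between sets, which would then have no deep RT library. Between 1 and 9 reads for Fosl2 in the shallow libraries limit its comparison there.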
